A study of Mus musculus with 15 samples.

Results

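Cadherins and protocadherins other than VE-cadherin (Cdh5) were described across the EVP, TA, and D populations of melanoma vessels. Genes were taken by symbol (Cdh, Pcdh, Fat, Dchs, and Celsr followed by their number or cluster letter), leaving out Cdh5, and had to reach a mean of 5 normalized counts across all 15 libraries. By name 100 rows of the deposited table matched, and 81 of them, among 53465 genes in all, had the required mean. These 81 comprised 5 type I classical cadherins, 11 type II classical cadherins, 3 other cadherins, 10 non-clustered protocadherins, 6 Fat and Dachsous genes, 3 Celsr genes, and 1, 21, and 21 genes of the alpha, beta, and gamma protocadherin clusters. The 19 rows left out held 13 of the 14 alpha protocadherin rows, together with Cdh16, Cdh22, Cdh26, Pcdh8, Pcdhb1, and Pcdhga10. Just inside the minimum were Pcdhb6 with a mean of 7.5 and Pcdhgb8 with 8.39, and just outside it were Cdh26 with 4.74 and one of the rows named Pcdha11 with 4.56. A gene present in 1 population could meet this minimum through that population alone, so the counts of members below describe the list and support nothing beyond it.

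The libraries came from CAG-GFP mice of both sexes, 8 to 14 weeks old, in which GFP is expressed ubiquitously, so that GFP separates host cells from injected B16-F0 melanoma cells but not vessel cells from other host cells. Tumors were taken on day 15, and GFP+ Lin-CD34+ cells were sorted on CD31 (Pecam1) and VEGFR2 (Kdr) into endovascular progenitors (EVP, CD31lo VEGFR2lo), transit amplifying cells (TA, CD31int VEGFR2lo), and definitive differentiated cells (D, CD31hi VEGFR2hi), with 5 libraries of each. RNA was amplified with a modified Smart-Seq2 protocol and sequenced, and the reads that fell on genes numbered 5394356 to 26513073 in a library. The labels do not say whether the replicates came from separate mice or tumors, so p-values measure the spread between these libraries, which may in part be technical.

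Cadherins are membrane proteins whose extracellular repeats bind calcium and join neighbouring cells, mostly by binding the same cadherin on the other cell. Classical cadherins hold on to the actin cytoskeleton through catenins, and in vessels VE-cadherin builds the adherens junction between endothelial cells while N-cadherin joins endothelial cells to mural cells. Protocadherins lack the catenin-binding tail, and Fat, Dachsous, and Celsr proteins are very large relatives that act in growth control and planar cell polarity.

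The labels were checked first. Cdh5, the VE-cadherin gene left out of the list, had 18.3 to 183 normalized counts in EVP, 138 to 7680 in TA, and 7196 to 13383 in D. Pecam1 and Kdr, whose proteins served as sorting gates and are therefore no finding, ran in the same order, with Pecam1 at 119 to 613, 372 to 15414, and 19114 to 32189 normalized counts. The summed level of 10 pan-endothelial markers was 2385 to 4279 in EVP, 5979 to 72865 in TA, and 103119 to 163172 in D, and 9 of the 10 were called higher in D than in EVP. The exception was Tek, the angiopoietin receptor Tie2, with 585 to 2335 normalized counts in EVP, 237 to 924 in TA, and 1689 to 3373 in D. The endothelial factor Erg was at 0 in EVP replicate 3. Apart from Tek, transcripts of these endothelial markers were therefore low in the population labelled as endothelial progenitors. For this label the paper also reports Cdh5-driven lineage tracing in other mice, and transplants in which only EVP cells persisted. The 10 fibroblast markers summed to 863257 to 1551220 in EVP, 196598 to 619562 in TA, and 1145 to 4261 in D, and all 10 were called higher in EVP and in TA than in D. Sums for the 10 melanoma markers were 31663 to 72718 in EVP, 74160 to 186856 in TA, and 19995 to 51527 in D. Melanoma marker transcripts were therefore present in every library, although GFP+ cells were sorted. These lists move with the comparisons below, and their part in the results was not tested. In sorted bulk samples, fewer cells of a type and less RNA per cell cannot be told apart.

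Between EVP and D, 20 of the 81 genes passed the threshold (limma on log2(normalized count + 1), Benjamini-Hochberg adjusted p under 0.05 over 25549 genes), 12 of them higher in EVP and 8 higher in D. Of all genes tested, 19.0% were called in this comparison, 11.6% higher in EVP and 7.46% higher in D, so that the share among cadherins (24.7%) was not far from the background. The members divided into an EVP set with Cdh11, Cdh9, Cdh3, Cdh1, Cdh2, Cdh15, Fat1, Pcdh18, Pcdh9, Pcdh20, Pcdh7, and Pcdhgc5, and a D set with Cdh13, Pcdh12, Pcdh17, Pcdh1, Dchs1, Fat4, Pcdhb20, and Pcdhgb6. The median log2 difference between EVP and D over the 81 genes was 0.36, beside 0.46 over all genes tested. Without EVP replicate 1 the median over all genes was 0.0012, and the median over the 81 genes was not taken in that fit. Libraries of EVP and D did not overlap for 17 of the 81 genes, beside 17.7% of all genes tested.

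Between TA and D, 20 of the 81 genes were also called, with 12 higher in TA and 8 higher in D. The background was 12.5% of all genes tested, 8.21% higher in TA and 4.31% higher in D. After quantile normalization 15 genes were called, 7 higher in TA and 8 higher in D, and over all genes 2117 in place of 3199. Libraries of TA and D did not overlap for 13 genes, beside 9.25% of all genes tested. Between EVP and TA only 3 genes were called, Pcdh12 and Cdh13 higher in TA and Pcdhb9 higher in EVP, beside 3.50% of all genes tested, 1.56% higher in EVP and 1.94% higher in TA. In this comparison 1 of the 81 genes, Pcdh12, had libraries that did not overlap, beside 4.29% of all genes. The comparisons of EVP and of TA with D share the D libraries, so agreement between them is partly built in. Over the 3 comparisons 27 genes were called at least once, and 54 were not called in any.

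**Figure D1:**
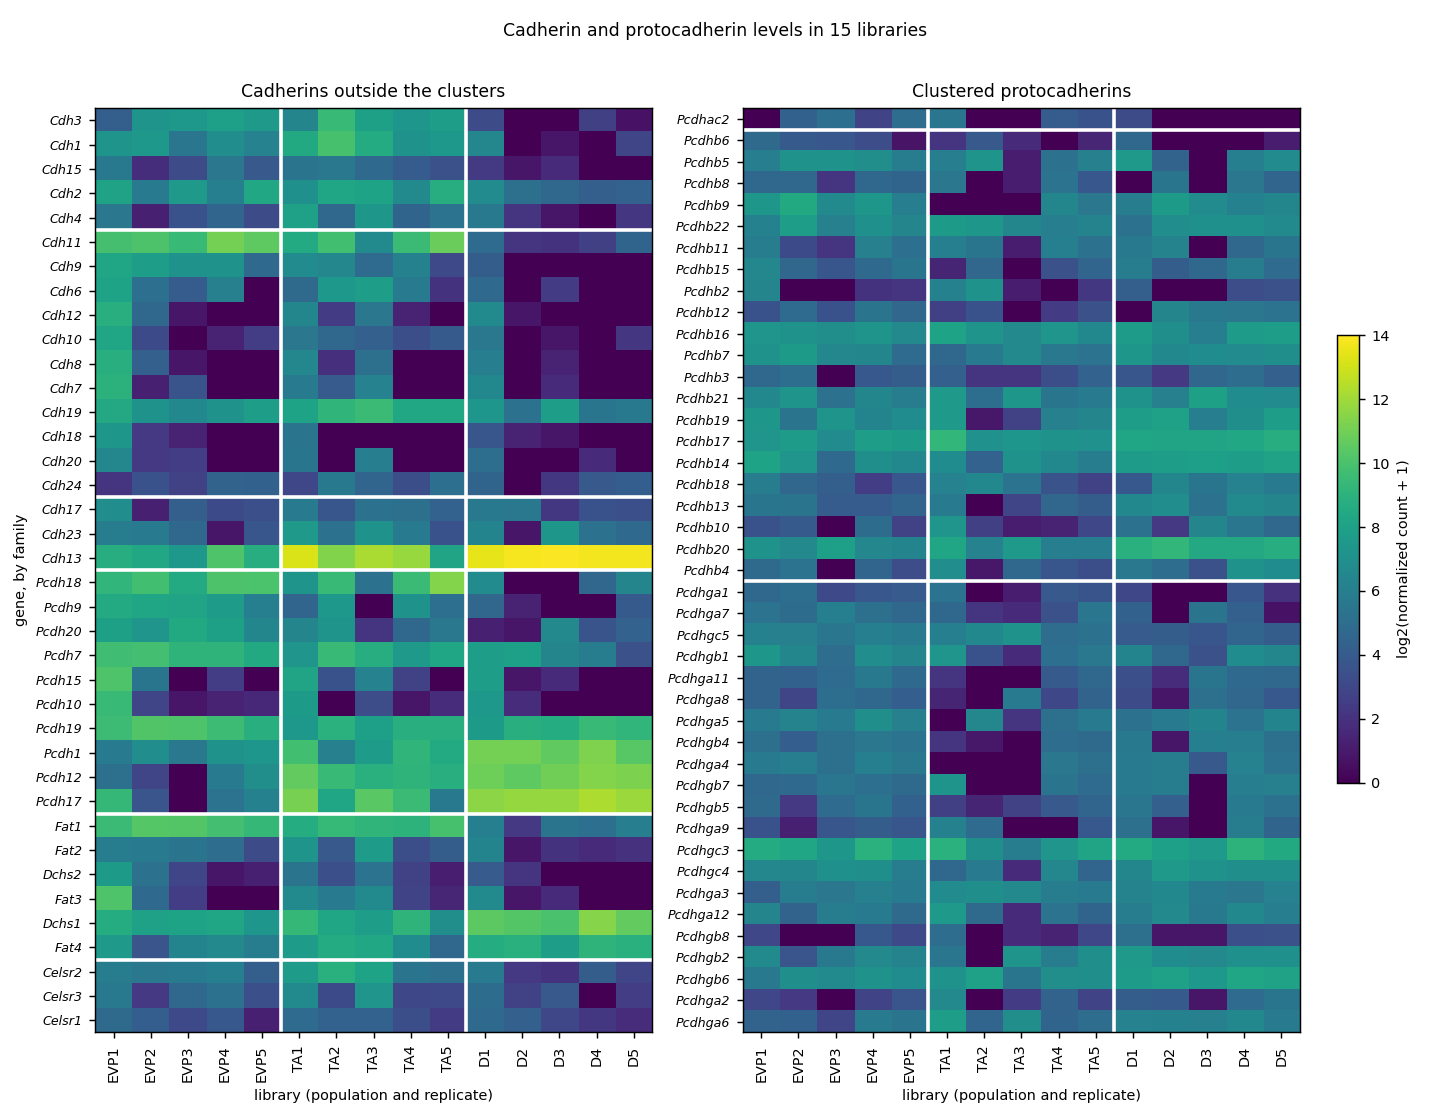
Levels of the 81 genes in the 15 libraries, as log2(normalized count + 1) on a color scale from 0 to 14, with genes in rows grouped by family (white lines) and ordered within a family by the difference between EVP and D. Cdh13 is the brightest row and is high in all D libraries, Cdh11 and Fat1 are high in EVP and TA, and Cdh8, Cdh12, Cdh18, Pcdh10, and Pcdh15 are bright mainly in replicate 1 of each population.

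All 5 type I classical cadherins were called higher in TA than in D, beside 8.21% of all genes tested. In EVP 4 of the 5 were called higher than in D, beside 11.6%. The largest of these differences belonged to Cdh3, which encodes P-cadherin and lies at chr8:106510891-106557297 (GRCm38) beside Cdh1, at chr8:106603351-106670246. Cdh3 had 17.6, 150, 176, 241, and 187 normalized counts in EVP, 81.0, 709, 251, 164, and 222 in TA, and 8.24, 0, 0, 5.26, and 0.604 in D. Every EVP and TA library was above every D library, and EVP replicate 1 was far below the other 4 EVP libraries. The log2 difference was 5.57 ± 0.82 (SE, adjusted p = 6.25e-05 in limma) between EVP and D and 6.49 ± 0.82 (adjusted p = 3.59e-05) between TA and D. On this log2(value + 1) scale, changes of genes with low counts are understated.

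Cdh1 encodes E-cadherin, the adherens junction cadherin of epithelia. It had 151, 179, 44.2, 115, and 72.6 normalized counts in EVP, 360, 973, 385, 144, and 174 in TA, and 87.9, 0, 0.782, 0, and 6.65 in D. D replicate 1 lay among the EVP values and the other 4 D libraries were near 0, so EVP and D overlapped while TA and D did not. The log2 difference was 4.61 ± 0.99 (adjusted p = 0.00240 in limma) between EVP and D and 6.28 ± 0.99 (adjusted p = 0.000345) between TA and D, but in edgeR and DESeq2 on whole reads the call between EVP and D was lost, with an adjusted p of up to 0.153. TA replicate 2 had the highest Cdh1 and Cdh3 of all 15 libraries. The same library had the highest sum of 10 keratinocyte markers, 91873 against 2917 to 21522 in the other TA libraries, with Krt14 at 39702 normalized counts. In D the keratinocyte sum was 135 to 3390, with its maximum in D replicate 1, and 8 of the 10 markers were called higher in TA and 6 higher in EVP than in D. The part of keratinocyte transcripts in the Cdh1 and Cdh3 results was not tested.

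Cdh2, the N-cadherin gene, had 267, 56.2, 182, 63.9, and 321 normalized counts in EVP, 129, 313, 275, 100, and 424 in TA, and 108, 34.3, 25.8, 18, and 20.5 in D. Only D replicate 1 reached into the range of the other populations. Its log2 difference was 2.09 ± 0.60 (adjusted p = 0.0187 in limma) between EVP and D and 2.70 ± 0.60 (adjusted p = 0.00522) between TA and D. The call between EVP and D was lost without EVP replicate 1, EVP replicate 5, D replicate 4, or D replicate 5, with adjusted p of 0.0514 to 0.0578.

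Cdh15, the M-cadherin gene of muscle and its satellite cells, was at or under the floor of 3 reads in every D library. In EVP it had 49.2, 2.61, 8.18, 46.4, and 13.8 normalized counts, and in TA 41.4, 47.5, 26.8, 15.7, and 9.96. Against a mean floor of 2.6 normalized counts, 3 reads per library, its mean was at least 9.26-fold higher in EVP and at least 10.9-fold higher in TA. The call in EVP (adjusted p = 0.0155 in limma) was lost without EVP replicate 4 (adjusted p = 0.0550). It was also lost with a pseudocount of 8 and after quantile normalization, with adjusted p of up to 0.341 in limma. After quantile normalization the call in TA was lost too (adjusted p = 0.0920). The 10 skeletal muscle and satellite cell markers summed to 278 to 671 in EVP, 334 to 2657 in TA, and 83.6 to 236 in D, and of the 8 tested, 1 was called higher in EVP and 1 higher in TA than in D. Pax7, Myf5, and Myod1 were highest in EVP replicate 4 (49.6, 72.7, and 22.4 normalized counts), and the other 7 markers were highest in other libraries. EVP replicate 1 and TA replicate 2, where Cdh15 was as high, had at most 10.5 normalized counts of any of these 3 genes, which equals 3 reads in EVP replicate 1. TA replicate 1, with Cdh15 at 41.4, had 20.7, 19.0, and 0 normalized counts of Pax7, Myf5, and Myod1. The part of muscle cells in the Cdh15 result was not tested.

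Cdh4, the R-cadherin gene, was called between TA and D alone. It had 262, 24.6, 167, 21.9, and 39.2 normalized counts in TA and 49.4, 3.27, 0.782, 0, and 3.63 in D, with a log2 difference of 3.83 ± 1.07 (adjusted p = 0.0247 in limma). TA replicates 1 and 3 stood far above the rest, and D replicate 1 overlapped with TA. The call was lost without TA replicate 1, TA replicate 3, or any 1 of D replicates 2 to 5, with adjusted p of 0.0503 to 0.0754.

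**Figure D2:**
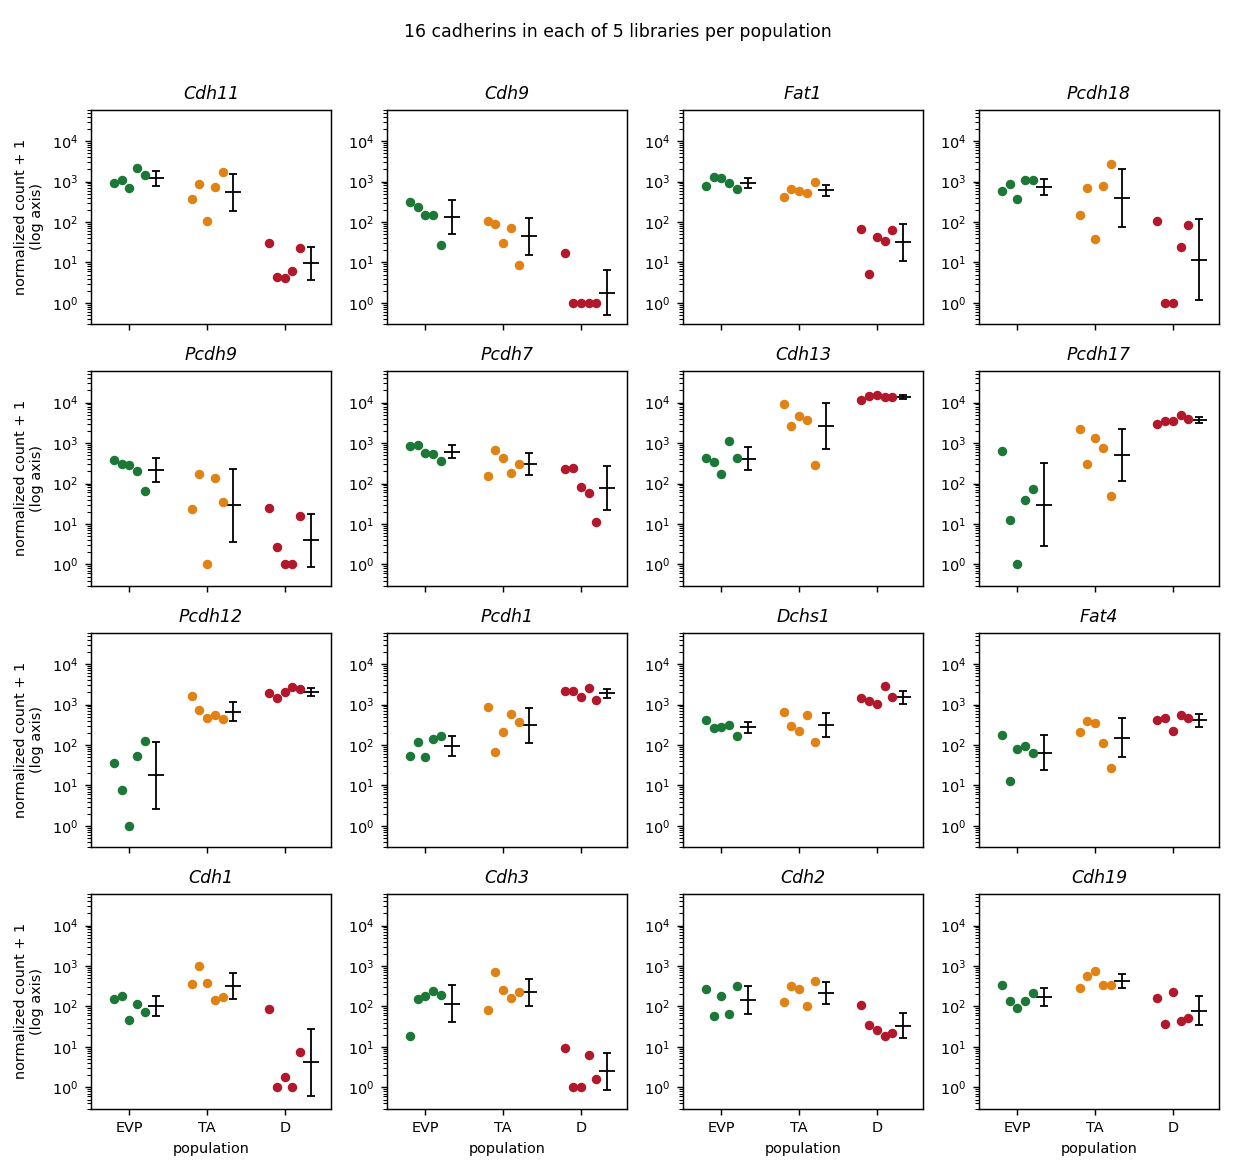
Normalized counts + 1 on a log axis for 16 genes in each of 5 libraries of EVP (green), TA (orange), and D (red), libraries 1 to 5 from left to right, with the mean and SD of log2(value + 1) in black. The D libraries lie below the EVP libraries for Cdh11, Cdh9, Fat1, Pcdh18, Pcdh9, and Pcdh7 and above them for Cdh13, Pcdh17, Pcdh12, Pcdh1, Dchs1, and Fat4. For these genes the TA libraries spread widely and are not always between, with Pcdh18 and Dchs1 in TA5 lying beyond all EVP libraries.

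Among the 11 type II classical cadherins, Cdh11 and Cdh9 were called in EVP, and the same genes with Cdh19 in TA, all higher than in D. Of all genes tested, 11.6% were called higher in EVP and 8.21% higher in TA than in D. Cdh11, the OB-cadherin of mesenchymal cells and bone (chr8:102632095-102785642, minus strand), showed the most significant difference of the 81 genes. It had 937, 1109, 712, 2160, and 1490 normalized counts in EVP, 379, 876, 103, 753, and 1760 in TA, and 28.8, 3.27, 3.13, 5.26, and 21.8 in D. No D library came near the lowest TA library, and EVP and TA overlapped. The EVP mean was 103-fold and the TA mean 62.2-fold the D mean. The log2 differences were 6.98 ± 0.69 (adjusted p = 8.70e-07 in limma) and 5.84 ± 0.69 (adjusted p = 1.77e-05), and leaving out any 1 library changed neither call.

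Cdh9 had 316, 231, 145, 148, and 26.3 normalized counts in EVP and 107, 87.9, 29.0, 71.3, and 7.47 in TA. In D it was at 0 in 4 libraries and at 16.5 in replicate 1. EVP lay above D without overlap, whereas TA replicate 5 was below D replicate 1. The log2 difference was 6.24 ± 0.94 (adjusted p = 8.42e-05 in limma) between EVP and D and 4.65 ± 0.94 (adjusted p = 0.00282) between TA and D.

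Cdh19, a cadherin of the neural crest and Schwann cell lineage, was highest in TA, with 279, 581, 742, 333, and 341 normalized counts. In D it had 165, 36.7, 222, 42.1, and 50.2, all below the lowest TA library, and in EVP 344, 138, 91.6, 139, and 218. The log2 difference between TA and D was 2.43 ± 0.51 (adjusted p = 0.00354 in limma), whereas between EVP and D it was 1.1 ± 0.51 (adjusted p = 0.169). The library with the most Cdh19, TA replicate 3, also had the highest melanoma marker sum. The 10 Schwann cell markers summed to 6180 to 16660 in EVP, 4061 to 7598 in TA, and 1447 to 2499 in D. Members of this list differed in their order. Pmp22 had 4051 to 8239 normalized counts in EVP, 1910 to 4447 in TA, and 999 to 2042 in D. Sox10 had 74.5 to 151 in EVP, 86.1 to 531 in TA, and 35.1 to 153 in D. The part of either lineage was not tested.

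The other 8 type II genes were not called. Cdh8, Cdh10, Cdh12, and Cdh18 belonged to 8 members whose 3 highest libraries were the replicates numbered 1 of EVP, TA, and D, the others being Cdh17, Celsr1, Pcdh10, and Pcdh15. Replicate 1 held between 40.0% and 97.6% of their summed normalized counts, and Pcdh15 had 1145, 288, and 228 normalized counts in EVP, TA, and D replicate 1 and at most 73.7 elsewhere. None of the 8 was called in any comparison. The share of all genes with their 3 highest libraries in replicate 1 was not counted. In the replicate 1 libraries reads fell on 98.3% (EVP), 81.6% (TA), and 89.2% (D) of 1106 olfactory receptor genes, odor receptors of nasal neurons. The range was 14.5% to 71.0% in replicates 2 and 3 and 2.89% to 5.06% in replicates 4 and 5. EVP replicate 1 also had the fewest reads, so that 3 reads correspond to 10.5 normalized counts there. Whether the levels of these 8 members share an origin with the olfactory receptor reads was not tested. Leaving replicate 1 out of all populations, 21 genes were called between EVP and D, 18 of them among the 20, and 23 between TA and D, 17 of them among the 20. Over all genes this gave 4805 and 3973 calls, in place of 4859 and 3199.

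Cdh13 had the highest mean of all 81 genes. It encodes T-cadherin, which is anchored by a lipid in place of a transmembrane tail and binds adiponectin on endothelium and muscle (chr8:118283733-119324921, plus strand). Normalized counts were 425, 334, 173, 1141, and 425 in EVP, 9350, 2587, 4768, 3672, and 288 in TA, and 11315, 14241, 15525, 13955, and 13592 in D. The D libraries were tightly grouped and above all others, and TA replicate 5 was within the EVP range while the other 4 TA libraries were above it. The mean in D was 27.5-fold that in EVP, and the log2 difference EVP minus D was -5.05 ± 0.67 (adjusted p = 2.08e-05 in limma). TA was lower than D by a log2 difference of -2.38 ± 0.67 (adjusted p = 0.0245) and higher than EVP (EVP minus TA -2.66 ± 0.67, adjusted p = 0.0342). The call against TA was lost without EVP replicate 1, 2, 3, or 5, or TA replicate 1, 2, 3, or 4 (adjusted p of 0.0540 to 0.101), and the call of TA against D without D replicate 2, 3, 4, or 5 (0.0503 to 0.0537).

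The order of the 5 TA libraries by Cdh13 (replicates 1, 3, 4, 2, and 5 from high to low) was also their order by Cdh5, by Pcdh17, and by the pan-endothelial marker sum. Cdh5 had 7680, 2357, 1942, 1785, and 138 normalized counts in these libraries taken in that order. The 2 remaining genes of this family were not called. Cdh17 had at most 116 normalized counts and Cdh23, a component of the tip links of inner ear hair cells, at most 186.

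Among the non-clustered protocadherins 7 of 10 genes were called between EVP and D, of which Pcdh18, Pcdh9, Pcdh20, and Pcdh7 were higher in EVP and Pcdh12, Pcdh17, and Pcdh1 higher in D. Of all genes tested, 19.0% were called, 11.6% higher in EVP and 7.46% higher in D. Pcdh12, an endothelial protocadherin also known as VE-cadherin-2, had 35.1, 6.53, 0, 52.7, and 122 normalized counts in EVP, 1612, 724, 473, 556, and 432 in TA, and 1893, 1476, 2027, 2745, and 2416 in D. EVP lay below both other populations in all libraries, and TA and D overlapped through TA replicate 1. EVP minus D was -6.86 ± 0.90 on the log2 scale (adjusted p = 1.89e-05 in limma) and EVP minus TA -5.23 ± 0.90 (adjusted p = 0.00457), whereas TA minus D was -1.63 ± 0.90 (adjusted p = 0.309). The call between EVP and TA was kept when any 1 library was left out and was lost without replicate 1 of all populations (adjusted p = 0.0708). Over the TA libraries Pcdh12 varied less than Cdh5 or Cdh13, with 432 normalized counts in TA replicate 5, where Cdh5 was at 138.

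Pcdh17 and Pcdh18 belong to the same branch of non-clustered protocadherins, the delta-2 group, and differed in opposite directions. Pcdh17 had 650, 11.8, 0, 39.2, and 70.5 normalized counts in EVP, 2241, 296, 1368, 736, and 49.2 in TA, and 3027, 3593, 3549, 5000, and 3875 in D. All D libraries were above all TA libraries, and EVP replicate 1 stood apart from the other EVP libraries. Pcdh18 had 586, 861, 372, 1099, and 1068 normalized counts in EVP, 152, 708, 36.8, 759, and 2726 in TA, and 106, 0, 0, 23.3, and 81.6 in D. EVP and D did not overlap, and the TA libraries covered the range from below D replicate 1 to above all EVP libraries. The 10 mural cell markers summed to 7437 to 34577 in EVP, 6212 to 158014 in TA, and 5232 to 10934 in D, with 4 called higher in EVP than in D and 2 higher in D, and 6 called higher in TA than in D. TA replicate 5 had the highest mural sum and, among the TA libraries, the most Pcdh18, Cdh11, and Cdh2. That library also had the highest fibroblast marker sum of the TA libraries, 619562 against 196598 to 530859. The part of mural cells or of fibroblasts in these results was not tested. The log2 difference EVP minus D was -6.97 ± 1.26 (adjusted p = 0.000499 in limma) for Pcdh17 and 5.99 ± 1.29 (adjusted p = 0.00246) for Pcdh18. TA minus D was -2.89 ± 1.26 (adjusted p = 0.167) for Pcdh17 and 5.05 ± 1.29 (adjusted p = 0.0142) for Pcdh18.

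The bases just upstream of these genes are shown because the pair differed in opposite directions and the windows differed little in base composition. RefSeq promoter windows on GRCm38.p6 were matched for 26 of the 81 genes, in 29 windows. Pcdh17 (chr14:84443313-84443562, plus strand) and Pcdh18 (chr3:49757326-49757566, minus strand) are given 5′ to 3′ up to the base before the annotated start, with capitals on ATTGG, which is CCAAT read on the opposite strand. The motifs searched for were chosen with the results known.
Pcdh17: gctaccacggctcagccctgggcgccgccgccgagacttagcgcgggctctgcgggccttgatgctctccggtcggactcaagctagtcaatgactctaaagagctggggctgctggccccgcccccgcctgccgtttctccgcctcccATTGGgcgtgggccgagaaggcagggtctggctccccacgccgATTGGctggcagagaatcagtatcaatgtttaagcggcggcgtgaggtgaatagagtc
Pcdh18: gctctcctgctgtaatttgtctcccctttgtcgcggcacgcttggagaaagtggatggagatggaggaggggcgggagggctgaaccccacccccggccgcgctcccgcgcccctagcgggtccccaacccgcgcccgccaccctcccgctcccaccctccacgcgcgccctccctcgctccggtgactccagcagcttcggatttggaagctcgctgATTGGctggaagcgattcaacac
Both windows were rich in G and C, 64.8% of 250 bases for Pcdh17 and 67.6% of 241 bases for Pcdh18, with 21 and 22 CpG dinucleotides, where the median of all promoter windows was 6. CCAAT occurred 2 times upstream of Pcdh17 and 1 time upstream of Pcdh18, and it was found in 33.8% of all 32851 windows of 250 bases and in 13 of the 29 member windows. On either strand, CACCTG (an E-box of the type bound by Snail and Zeb factors) was in 17.2% of all windows and 5 of the 29, CCGGAA (an ETS core) in 12.0% and 0 of the 29, and AACAAT (a Sox core) in 9.42% and 1 of the 29. None of these 3 occurred in the windows shown. The 4 motifs can share bases at their ends, but a full match of one is never a full match of another.

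Pcdh1 and Pcdh7 belong to the delta-1 group and also differed in opposite directions. Pcdh1 had 52.7, 118, 48.3, 141, and 165 normalized counts in EVP, 853, 67.7, 203, 580, and 377 in TA, and 2122, 2184, 1540, 2513, and 1331 in D, with every D library above every other library. Its log2 difference was -4.33 ± 0.54 (adjusted p = 1.16e-05 in limma) for EVP minus D and -2.63 ± 0.54 (adjusted p = 0.00319) for TA minus D. Pcdh7 had 843, 899, 556, 551, and 362 normalized counts in EVP, 155, 687, 427, 181, and 301 in TA, and 224, 237, 82.1, 57.8, and 10.3 in D. EVP and D did not overlap for Pcdh7, and the log2 difference was 2.96 ± 0.66 (adjusted p = 0.00325).

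Pcdh9 and Pcdh20 were higher in EVP than in D and lay between in TA. Pcdh9 had 376, 300, 286, 209, and 65.0 normalized counts in EVP and 23.3, 1.63, 0, 0, and 14.5 in D, without overlap (log2 difference 5.75 ± 1.23, adjusted p = 0.00236 in limma). Pcdh20 had 249, 159, 368, 244, and 85.7 in EVP and 1.37, 0.816, 93.8, 11.3, and 20.5 in D, with D replicate 3 just above the lowest EVP library (4.29 ± 1.03, adjusted p = 0.00565). The Pcdh20 call was lost in edgeR on whole reads and without replicate 1 of all populations, with adjusted p of up to 0.0750. Pcdh19, another delta-2 gene, had 857 ± 295 (SD, n = 5) normalized counts in EVP, 361 ± 143 in TA, and 467 ± 188 in D and was not called.

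Of the 6 giant cadherins, Fat1, Fat4, and Dchs1 were called between EVP and D, beside 19.0% of all genes tested, and they did not move together. Fat1 had 758, 1278, 1236, 905, and 647 normalized counts in EVP, 403, 663, 573, 534, and 961 in TA, and 65.9, 4.08, 40.6, 33.1, and 62.2 in D. D lay far below both other populations without overlap, with log2 differences of 4.89 ± 0.54 (adjusted p = 2.70e-06 in limma) for EVP minus D and 4.26 ± 0.54 (adjusted p = 3.59e-05) for TA minus D. Dchs1 and Fat4 are known as ligand and receptor of each other on neighbouring cells, and both were higher in D. Dchs1 had 411, 259, 277, 308, and 163 normalized counts in EVP, 652, 297, 219, 556, and 118 in TA, and 1446, 1231, 1019, 2801, and 1576 in D. Every D library was above every EVP and TA library, with log2 differences of -2.48 ± 0.41 (adjusted p = 0.000213) for EVP minus D and -2.29 ± 0.41 (adjusted p = 0.00103) for TA minus D. Fat4 had 179, 11.8, 78.5, 95.1, and 60.8 in EVP and 402, 466, 223, 546, and 465 in D, also without overlap (-2.65 ± 0.70, adjusted p = 0.0112), and 209, 383, 340, 111, and 25.5 in TA, which overlapped with both. Fat2, Fat3, and Dchs2 were not called. Fat3 had 1145 normalized counts in EVP replicate 1 and at most 103 in the other libraries.

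Of the Celsr genes, whose proteins set planar cell polarity across epithelia, only Celsr2 was called, between TA and D (12.5% of all genes tested). It had 215, 469, 282, 40.7, and 34.9 normalized counts in TA and 54.9, 4.08, 3.13, 16.5, and 6.65 in D (log2 difference 3.61 ± 0.81, adjusted p = 0.00573 in limma), with TA replicates 1 to 3 high and D replicate 1 above TA replicates 4 and 5. In EVP it had 59.7, 48.3, 50.7, 63.9, and 18, and EVP minus D was 2.05 ± 0.81 (adjusted p = 0.0950).

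**Figure D3:**
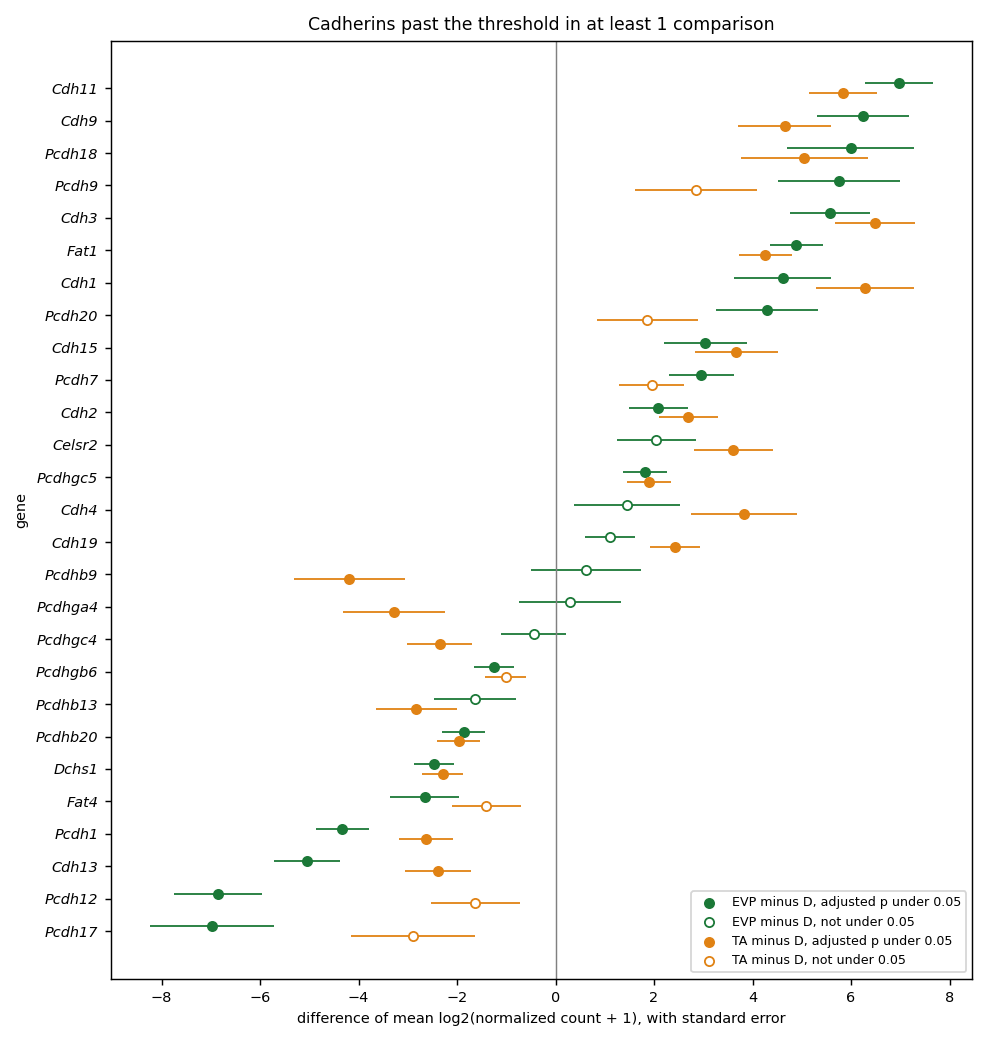
Differences of mean log2(normalized count + 1) with standard errors for the 27 genes called in at least 1 comparison, EVP minus D in green and TA minus D in orange, with filled points for an adjusted p under 0.05. From Cdh11 at the top (6.98 and 5.84) to Pcdh17 at the bottom (-6.97 and -2.89), the TA values mostly have the sign of the EVP values, with Pcdhb9 and Pcdhga4 as exceptions.

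Of the 20 genes called between EVP and D, 14 had a TA mean on the log2 scale between the EVP and D means. The 6 others were Cdh1, Cdh2, Cdh3, Cdh15, and Pcdhgc5, which were higher in TA than in EVP by log2 differences of 0.07 to 1.67, and Pcdhb20, which was lower in TA than in EVP by 0.10. Leaving out single libraries turned the sign for Pcdhb20 (EVP minus TA of -0.15 to 0.47) and for Pcdhgc5 (-0.32 to 0.21). None of these 6 differences between EVP and TA passed the threshold (adjusted p of 0.481 to 0.991 in limma).

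Clustered protocadherins are known from neurons, where each cell chooses a few promoters of the cluster and displays the resulting set on its surface for self-recognition. The members lie in tandem on chromosome 18. The beta genes are closely related in sequence, and the gamma genes share their last exons, so that only 26.4% to 68.5% of the exonic bases of a gamma gene belong to it alone, and reads of near-identical stretches could be lost or split in counting. Levels of single members are therefore uncertain. In each library between 20 and 42 of the 42 beta and gamma members had more than 3 reads, with 36 to 42 in EVP, 20 to 41 in TA, and 31 to 41 in D. The lowest were TA replicates 3 (20) and 2 (27), whereas TA replicate 5 had 41. The alpha cluster was hardly seen, with at most 6 of its 14 rows above 3 reads in a library, and its only member, Pcdhac2, had at most 44.8 normalized counts and was not called.

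**Figure D4:**
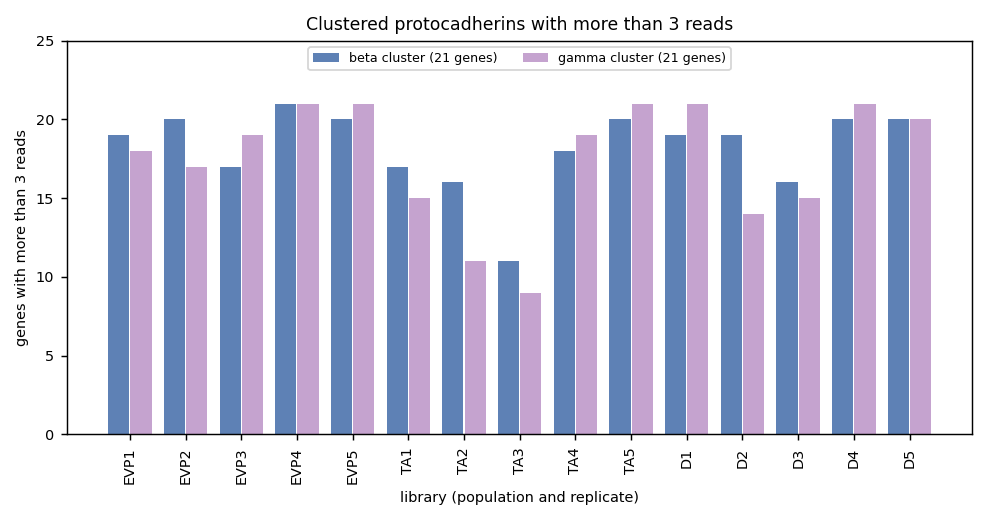
Number of beta (blue) and gamma (lilac) protocadherin genes with more than 3 reads, of 21 each, in each of the 15 libraries. At least 20 genes of each cluster are seen in EVP4, EVP5, TA5, D4, and D5, and TA3 shows 11 beta and 9 gamma genes. The floor of 3 reads is the same in every library, whatever its depth.

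Summed over the 21 members, beta protocadherins had 1514 ± 416 (SD, n = 5) normalized counts in EVP, 1310 ± 718 in TA, and 2303 ± 270 in D, and gamma protocadherins had 1224 ± 287, 1055 ± 469, and 1474 ± 317. No single member made up most of either cluster. The most abundant beta gene in a library held 14.5% to 25.1% of the beta sum and the most abundant gamma gene 17.3% to 31.0% of the gamma sum. Pcdhgc3, one of the C-type gamma genes that lie nearest the shared exons, was the leading gamma gene in 12 of 15 libraries, with 323 ± 123 normalized counts in EVP, 222 ± 168 in TA, and 338 ± 131 in D, and was not called. Pcdhb17, with the highest mean of the beta genes, had 107 to 223 normalized counts in EVP and 283 to 425 in D, without overlap, and was not called either (EVP minus D -0.88 ± 0.38, adjusted p = 0.132 in limma).

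Of the 42 beta and gamma genes, 3 were called between EVP and D and 6 between TA and D, where 19.0% and 12.5% of all genes tested were called. Pcdhb20 had 140, 96.7, 234, 89.5, and 79.5 normalized counts in EVP, 307, 73.8, 180, 61.9, and 62.9 in TA, and 475, 620, 350, 343, and 422 in D, where all libraries exceeded all others. EVP minus D was -1.86 ± 0.44 (adjusted p = 0.00468 in limma) and TA minus D was -1.96 ± 0.44 (adjusted p = 0.00540). Pcdhgc5 moved the other way, with 70.2, 67.9, 45.0, 63.9, and 56.7 in EVP, 65.5, 90.5, 141, 31.3, and 38 in TA, and 15.1, 16.3, 12.5, 22.5, and 16.3 in D. The D libraries lay below all others (EVP minus D 1.82 ± 0.45, adjusted p = 0.00666; TA minus D 1.89 ± 0.45, adjusted p = 0.00829), and both calls were lost after quantile normalization, with adjusted p of up to 0.638.

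The remaining calls in the clusters rested on few libraries. Pcdhb9 was at 0 in TA replicates 1 to 3 and had 83.8 and 46.1 normalized counts in TA replicates 4 and 5, compared with 61.5 to 361 in EVP and 59.0 to 198 in D. Its call between EVP and TA (EVP minus TA 4.80 ± 1.12, adjusted p = 0.0234 in limma) was lost without EVP replicate 1, 2, 3, or 4, or TA replicate 1 or 3 (adjusted p of 0.0513 to 0.0797), and that between TA and D (adjusted p = 0.0188) without TA replicate 2 or D replicate 2 (0.0522 to 0.0530). Pcdhga4 was at 0 in the same 3 TA libraries (TA minus D -3.28 ± 1.04, adjusted p = 0.0473), and its call was lost in 12 of the 15 fits with 1 library left out (adjusted p of 0.0578 to 0.114). Pcdhb13 (-2.83 ± 0.83, adjusted p = 0.0316) and Pcdhgc4 (-2.36 ± 0.66, adjusted p = 0.0245) were lower in TA than in D. They lost this call without D replicate 2, 4, or 5, Pcdhb13 also without D replicate 1 or TA replicate 3 and Pcdhgc4 without D replicate 3, with adjusted p of 0.0515 to 0.0781. Pcdhgb6 was lower in EVP than in D (-1.25 ± 0.41, adjusted p = 0.0416) and lost its call in 10 of the 15 such fits (0.0504 to 0.113).

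To compare genes with each other, mean normalized counts were divided by the exonic kilobases that belong to the gene alone. Of the summed level per kilobase of the 81 genes and Cdh5, Cdh5 made up 39.1% in D, 19.5% in TA, and 0.958% in EVP (means over 5 libraries). Cdh13 was second in D and in TA, with 21% and 11.8%, and in EVP it held 2.23%. Pcdh12, Pcdh17, and Pcdh1 followed in D with 5.89%, 4.94%, and 3.71%. In EVP the first ranks were held by Pcdhgc3 (9.04%, with only 33.1% of its exonic bases its own), Pcdh18 (7.91%), Cdh11 (7.58%), Pcdh19 (4.51%), Pcdh7 (4.01%), and Fat1 (3.51%). The levels per kilobase of Pcdh18 and Cdh11 in EVP, 149 ± 58.5 and 144 ± 63.7 (SD, n = 5), differed by less than their spread. In TA the make-up differed between libraries, with Cdh5 at 1.68% to 35.0% and Pcdh18 at 0.289% to 25.9%.

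**Figure D5:**
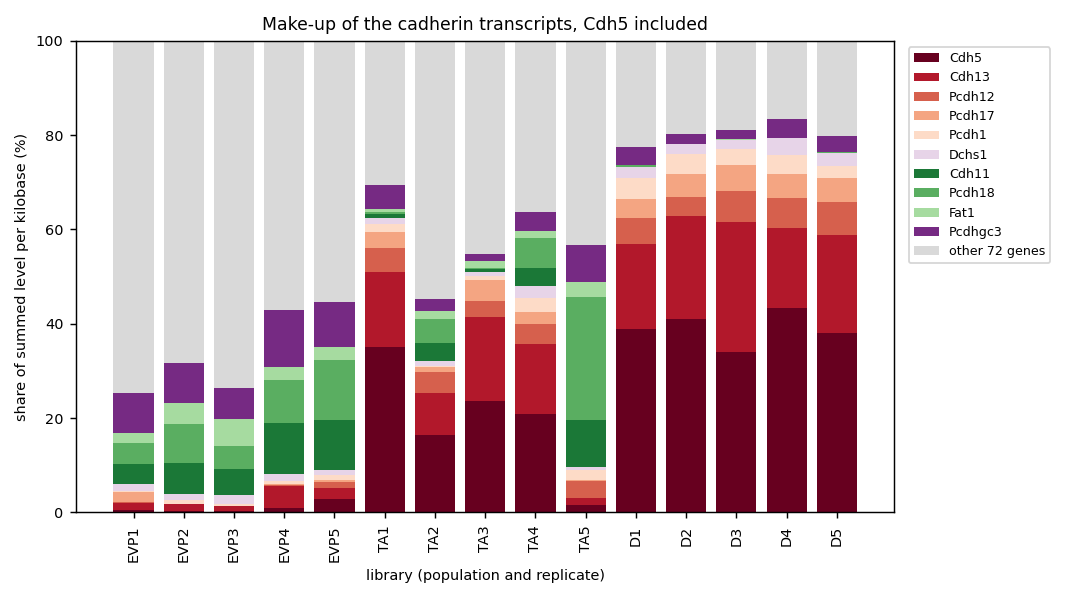
Share (%) of each gene in the summed level per kilobase of the 81 genes and Cdh5, in each of the 15 libraries, with 10 genes in color and the other 72 in grey. Cdh5 and Cdh13 (dark reds) fill most of the D bars, Pcdhgc3 (purple), Pcdh18, and Cdh11 (greens) hold the largest mean shares in EVP, and Cdh5 makes up 35.0% of the TA1 bar and 1.68% of the TA5 bar.

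Partners of the cadherins were read from lists of 10 to 18 tested genes each. Of 16 catenins and junction adaptors, 8 were higher in D than in EVP and 2 higher in EVP, where 7.46% and 11.6% of all genes tested were called. The same shares hold as background for the counts between EVP and D of the other lists. The median log2 difference EVP minus D was -0.75, beside 0.46 over all genes. The value over all genes was 0.0012 without EVP replicate 1. Jup, plakoglobin, had 588 ± 166 (SD, n = 5) normalized counts in EVP, 2592 ± 1558 in TA, and 4168 ± 895 in D (EVP minus D -2.84 ± 0.39, adjusted p = 2.66e-05 in limma). Tjp1, the tight junction scaffold ZO-1, had 380 ± 97.3, 1107 ± 628, and 2853 ± 500 (-2.92 ± 0.35, adjusted p = 7.47e-06), and the scaffold Magi1 was also higher in D (-2.44 ± 0.36, adjusted p = 7.40e-05). Arvcf, a catenin of the p120 family, went the other way with 272 ± 113, 150 ± 90.2, and 11 ± 7.53 (4.80 ± 0.87, adjusted p = 0.000497). In this list 5 genes were higher in D than in TA and 1 higher in TA (4.31% and 8.21% of all genes), and 4 were higher in TA than in EVP and 1 higher in EVP (1.94% and 1.56% of all genes).

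Partners of Fat and Dachsous, the Hippo pathway included, numbered 18 among the tested genes, with 3 called in favor of EVP and 4 of D. Of the Tead factors that bind DNA at the end of this pathway, Tead3 had 99.8 to 149 normalized counts in EVP and 0 to 12.4 in D (5.71 ± 0.69, adjusted p = 8.24e-06 in limma), whereas Tead4 had 0 to 22.8 in EVP and 160 to 204 in D (-4.44 ± 0.68, adjusted p = 0.000100). Fjx1, the mouse relative of four-jointed, a kinase of Fat and Dachsous repeats, was higher in EVP (3.45 ± 0.97, adjusted p = 0.0174), as was Wwc1, also known as Kibra (2.82 ± 0.86, adjusted p = 0.0272). Of 13 planar cell polarity genes, Fzd3 (3.41 ± 0.94, adjusted p = 0.0152) and Dvl2 (1.85 ± 0.35, adjusted p = 0.000816) were higher in EVP, Prickle3 (-1.88 ± 0.28, adjusted p = 8.16e-05) and Ptk7 (-1.33 ± 0.36, adjusted p = 0.0127) were higher in D, and 9 were not called.

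The 10 tested transcription factors known to regulate cadherin genes held 4 with higher levels in EVP and 2 with higher levels in D. The mesenchymal factor Twist2 had 168 to 354 normalized counts in EVP, 26.8 to 121 in TA, and 0 to 3.0 in D (EVP minus D 7.22 ± 0.59, adjusted p = 1.06e-07 in limma). Twist1 had 131 to 204, 2.23 to 61.6, and 0 to 4.08 (6.27 ± 0.77, adjusted p = 9.33e-06). Zeb2, a repressor of Cdh1, was also higher in EVP (3.63 ± 0.30, adjusted p = 1.17e-07), where Cdh1 was higher too. Zeb1, which also represses Cdh1, was higher in D (-1.33 ± 0.16, adjusted p = 8.55e-06), as was the E-protein gene Tcf4 (-2.58 ± 0.28, adjusted p = 2.00e-06). Among 11 cadherin-cleaving enzymes, Adam9 was higher in EVP (1.06 ± 0.17, adjusted p = 0.000177), and Adam10, which sheds E-cadherin, N-cadherin, and VE-cadherin, was higher in D with 7498 ± 830 normalized counts against 2268 ± 366 (-1.73 ± 0.24, adjusted p = 2.75e-05), as were Adam15 (-1.09 ± 0.24, adjusted p = 0.00323), Adam12 (-0.72 ± 0.24, adjusted p = 0.0474), and Ncstn, a subunit of gamma-secretase (-0.51 ± 0.16, adjusted p = 0.0330). Of 13 genes that act in protocadherin promoter choice and silencing, among them Ctcf, the cohesin genes, and the DNA methyltransferases, only the cohesin gene Smc1a was called, higher in D than in EVP (-1.0 ± 0.18, adjusted p = 0.000385) and in TA (adjusted p = 0.0312).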

How the data were processed

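EVP, TA, and D were represented by 5 RNA sequencing libraries each. Alignment to GRCm38 was done by the authors with STAR 2.5.3a, counting on genes with HTSeq-count, and scaling with DESeq2 1.10.1. The deposited values are a signal: for 53465 genes, the count of a gene over the size factor of its library. Tables of the authors' own comparisons (mean, log2 fold change, its standard error, statistic, and p-values) were not used. Division of each library by its smallest value above 0 gave whole reads for 100% of values (within 0.1 of a whole number), between 5394356 and 26513073 reads per library. The floor of 3 reads used for low values accounts for counting error alone, as molecular identifiers were not part of the protocol.

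Log2(normalized count + 1) was taken for 25549 genes, those whose mean reached 5, and fitted with limma 3.58.1 in R 4.3.3 (1 coefficient per population, trend, two-sided tests, Benjamini-Hochberg adjustment over all genes, threshold 0.05), with all 15 libraries in 1 fit. The threshold applies to limma's moderated test throughout. Values after ± are standard errors of differences or SDs of levels. edgeR 4.0.16 and DESeq2 1.42.0 on whole reads served as alternatives, next to other pseudocounts, minimum means, scalings, and array weights, fits of 2 populations, a replicate block, and leaving out libraries. Methods were tested on simulated data. Coordinates and exon lengths came from GENCODE on GRCm38, which matched 99.8% of gene IDs and all 81 members, and promoter sequences from RefSeq on GRCm38.p6. Coordinates of the deposited files are on GRCm38.

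The members and gene lists were chosen with earlier results of these data known. Named were members called in at least 1 comparison, the member with the highest mean of each family, up to 4 called genes per partner list with the largest difference between EVP and D, and Cdh5, Pecam1, and Kdr. Other genes (Pcdh19, Cdh17, Cdh23, Fat3, Ncstn, Zeb1, and the markers) were named after their values were seen.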

Additional observations from a re-analysis of the deposited data

Results flagged for a closer look

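Each population was searched for single libraries far from the other 4, on log2(normalized count + 1) and with Dixon's criterion for 5 values, over the 27 genes called in at least 1 comparison. Of the 81 groups of 5 libraries, 4 had such a library, and chance alone gives about 1 in 20. Cdh3 in EVP replicate 1 was low, with 17.6 normalized counts beside 150 in the next library. Cdh9 in D replicate 1 was high, with 16.5 normalized counts where the other 4 D libraries were at 0. Fat1 in D replicate 2 was low, with 4.08 normalized counts beside 33.1 in the next library. Celsr2 in EVP replicate 5 was low, with 18 normalized counts beside 48.3 in the next library.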

How the results depend on the processing

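Of the 43 calls of a gene in a comparison, none changed sign over 29 alternatives. Several alternatives leave the log2 difference as it is and could not turn a sign. Among them are other minimum means, fits of 2 populations, the replicate block, and leaving out a library of the population not compared. Of the 43 calls, 21 were kept under every alternative that gave an adjusted p and 22 were lost under at least 1. With array weights, 33 genes were called between EVP and D and 32 between TA and D in place of 20 each, and 1 in place of 3 between EVP and TA. Calls over all 25549 genes moved the same way, to 7609, 5054, and 693 from 4859, 3199, and 893. Between EVP and TA, 1 gene was called when only the 2 populations were fitted and 0 without replicate number 1 of all populations. On all libraries edgeR and DESeq2 called 2 and 4. Over all genes the fit of 2 populations called 659, the fit without replicate number 1 called 104, and edgeR and DESeq2 called 663 and 1900. Between TA and D, edgeR on whole reads called 13, and 2570 over all genes. Leaving out 1 library gave 18 to 22 genes between EVP and D, 1 to 5 between EVP and TA, and 15 to 22 between TA and D. The ranges over all genes were 4120 to 5152, 429 to 1214, and 2417 to 3501. For EVP and TA, 1 gene remained without EVP replicate 2, EVP replicate 3, TA replicate 1, or TA replicate 3, and 5 were called without TA replicate 5. The causes were not tested. Quantile normalization moved the median log2 difference of all genes between EVP and D from 0.46 to -0.05. Leaving out EVP replicate 1 moved it to 0.0012, whereas leaving out any other library gave 0.36 to 0.68.

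Replicate numbers are shared by the populations, but the labels do not say that they pair samples. Deviations of libraries with the same number correlated between -0.14 and 0.69, and the best partner had the same number in 12 of 15 checks. The 3 exceptions were those of replicate 3, while replicates 1, 4, and 5 correlated at 0.36 to 0.69 in every comparison, a hint from the data and not from the design. With the replicate block, 23 genes were called between EVP and D, 5 between EVP and TA, and 23 between TA and D. Over all genes the block called 5710, 1262, and 4047, in place of 4859, 893, and 3199. Depth sets the floor, since 3 reads equal 1.81 to 10.5 normalized counts, depending on the library.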
